A study of Mus musculus with 8 samples.

Results

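The mitochondrial ribosomal protein genes were taken as the rows of the deposited table whose gene symbol is Mrpl or Mrps followed by a number and at most 1 further letter, with at least 1 CPM (read counts that the authors scaled to a common library size) in at least 2 of the 8 libraries. The symbol matched 78 rows and all 78 passed the filter, 49 with large subunit (Mrpl) and 29 with small subunit (Mrps) names, among 16232 genes that passed of 49492 in the table. The symbol does not take every subunit: Dap3, Chchd1, Ptcd3, Aurkaip1 and Gadd45gip1 carry other names and were described separately.

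Polyadenylated RNA was sequenced from mouse embryonic fibroblasts (MEFs) to ask which genes respond to glucose starvation when the chromatin remodelling factor Pontin can or cannot be methylated by CARM1. All 4 groups came from MEFs in which the floxed endogenous gene had been removed by a Cre virus and which stably expressed Flag-tagged Pontin, either wild type (WT) or the RA form, in which 2 arginines that receive the methyl groups are replaced by alanine. Cells of either form were grown in normal medium or under glucose starvation, with 2 libraries per group (WT normal, WT starved, RA normal, RA starved). Each form of Pontin was represented by cells of 1 stable line as far as the sources tell, so the form of Pontin and the line that carried it cannot be told apart, and nothing says that the 2 libraries of a group came from separate cultures, so p-values measure only the spread between these libraries, which may be technical.

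Mitoribosomes are built in the mitochondrial matrix from ribosomal RNAs that the mitochondrial genome encodes and from proteins that the nucleus encodes, the cytosol translates and the organelle imports. They translate the few membrane-embedded respiratory chain subunits that mitochondrial DNA still encodes. The proteins fall into relatives of bacterial ribosomal proteins and proteins found only in mitoribosomes, and promoters of such genes are known for sites of the nuclear respiratory factors NRF1 and NRF2, an ETS family complex that contains GABPA.

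Promoters of 5 members are shown because of their starvation responses: Mrps9, Mrpl45 and Mrps30 had the 3 highest values in WT cells, Mrpl33 the lowest in WT and Mrpl18 the lowest in RA cells. Each runs from 250 bases before to 50 bases after the RefSeq transcript start in build GRCm38.p6, read 5′ to 3′, at chr1:42850983-42851282 on the plus strand for Mrps9, chr11:97315466-97315765 on the plus strand for Mrpl45, chr13:118387203-118387502 on the minus strand for Mrps30, chr5:31613701-31614000 on the plus strand for Mrpl33 and chr17:12916042-12916341 on the minus strand for Mrpl18. Capitals mark the letters searched, GCGCANGCG for NRF1, CCGGAAG for ETS factors, ATGGCGGC for YY1 and CCAAT, each on both strands.
Mrps9: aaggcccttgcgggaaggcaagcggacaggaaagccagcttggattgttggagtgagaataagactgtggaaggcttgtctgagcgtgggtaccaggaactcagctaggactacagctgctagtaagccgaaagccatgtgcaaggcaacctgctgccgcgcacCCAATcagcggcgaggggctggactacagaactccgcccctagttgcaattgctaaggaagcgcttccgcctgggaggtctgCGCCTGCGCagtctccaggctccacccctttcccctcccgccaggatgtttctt
Mrpl45: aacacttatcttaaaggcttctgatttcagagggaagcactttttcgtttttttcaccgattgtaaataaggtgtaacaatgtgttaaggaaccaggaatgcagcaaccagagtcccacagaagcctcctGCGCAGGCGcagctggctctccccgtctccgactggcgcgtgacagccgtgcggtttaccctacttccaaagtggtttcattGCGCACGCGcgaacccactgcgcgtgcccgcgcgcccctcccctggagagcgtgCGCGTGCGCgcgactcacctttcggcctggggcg
Mrps30: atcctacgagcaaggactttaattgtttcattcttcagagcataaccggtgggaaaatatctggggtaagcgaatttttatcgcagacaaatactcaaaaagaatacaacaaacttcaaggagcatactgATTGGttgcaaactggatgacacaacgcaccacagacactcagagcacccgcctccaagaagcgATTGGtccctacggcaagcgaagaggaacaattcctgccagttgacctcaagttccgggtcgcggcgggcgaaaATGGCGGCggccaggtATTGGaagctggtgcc
Mrpl33: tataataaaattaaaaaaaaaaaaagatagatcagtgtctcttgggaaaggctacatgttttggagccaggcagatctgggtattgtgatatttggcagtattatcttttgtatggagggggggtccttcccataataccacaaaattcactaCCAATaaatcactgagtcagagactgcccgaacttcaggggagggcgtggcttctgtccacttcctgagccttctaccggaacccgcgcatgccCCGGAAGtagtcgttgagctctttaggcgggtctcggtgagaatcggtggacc
Mrpl18: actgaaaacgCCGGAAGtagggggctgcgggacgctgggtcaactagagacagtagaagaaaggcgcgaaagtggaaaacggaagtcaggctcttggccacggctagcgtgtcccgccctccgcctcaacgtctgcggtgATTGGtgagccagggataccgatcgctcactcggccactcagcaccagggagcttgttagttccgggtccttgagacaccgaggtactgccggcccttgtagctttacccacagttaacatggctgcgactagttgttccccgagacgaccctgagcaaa

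The promoter of Mrpl45 held the NRF1 letters at 3 positions and that of Mrps9 at 1, and the Mrps30 promoter held the YY1 letters together with 3 CCAAT boxes. The 2 promoters of the genes that fell each held 1 ETS match and 1 CCAAT box. The RefSeq table held 75 promoters of 69 members, and the letters for NRF1 stood in 16 of these (21.3%), against 6.2% of all 32851 promoters in the table and 12.5% of the 13246 promoters of genes tested. The ETS letters stood in 34.7% of the members' promoters, against 8.9% of all and 16.5% of those of genes tested, and the YY1 letters in 16%, against 2.2% and 4.6%. CCAAT boxes stood in 40.0% of members' promoters, 37.4% of all and 37.8% of those of genes tested. The E-box CACGTG stood in 9.3%, 7.2% and 9.7%, and the FOXO letters GTAAACA in 2.7%, 3.6% and 2.5%, so for both the direction against the members turned with the promoters compared. The ATF4 letters TGATGNAA were in none of the members' 75 promoters, in 4.0% of all and in 2.2% of those of genes tested. Split by the response in WT cells, the NRF1 letters stood in 25.6% of 39 promoters of members that rose, 10% of 20 of members that fell and 25% of 16 of members that did not pass the test, and the ETS letters in 28.2%, 45.0% and 37.5%. The NRF1 letters were chosen after the promoters had been read, in place of a stricter form. The ETS and NRF1 letters share no bases in the 5 promoters shown, and a match describes letters, not a bound site.

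The 8 libraries held between 43205841 and 56363034 counted reads, recovered as whole numbers from the CPM values, and the members took 0.312% of the reads in WT normal, 0.320% in WT starved, 0.322% in RA normal and 0.300% in RA starved. Ruvbl1, which encodes Pontin, stood at 28.4 and 27.6 CPM in WT normal, 27.9 and 28.4 in WT starved, 36.8 and 32 in RA normal, and 45.0 and 42.9 in RA starved, and reads of the Flag-tagged copy and of any endogenous transcript cannot be told apart. Of 11 fibroblast markers, 10 were at 1 CPM or more, and their summed level ran from 10905 to 11010 CPM in WT normal, 5571 to 5656 in WT starved, 10842 to 11187 in RA normal and 7362 to 7374 in RA starved. The 10 markers of other cell types summed to between 4.07 and 6.56 CPM per library. Of the fibroblast markers Lum was at most 0.363 CPM in each library, and among the others Ptprc was at 0 in 7 of 8 libraries. The summed fibroblast markers moved with starvation and were higher in RA starved than in WT starved. Single markers did not all follow the sum. By the limma test used below, 8 of the 10 tested fell and 1 rose in WT, against 39.2% and 39.3% of all genes tested. Of the same 10, 9 were higher and 1 lower in RA starved than in WT starved, against 30.8% and 32.1% of all genes. The part of these markers in the members' results was not tested, and fewer cells of a type and less RNA per cell cannot be told apart.

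Over all 78 members, the summed level was 3032 ± 55.3 CPM in WT normal, 3273 ± 89.1 in WT starved, 3230 ± 107 in RA normal and 3014 ± 7.28 in RA starved (mean ± SD, n = 2 each). The sum stood higher in starved than in normal WT libraries and lower in starved than in normal RA libraries, and neither pair of groups overlapped. Per kilobase of the longest annotated transcript, the mean level of a member over the 8 libraries ran from 5.57 CPM per kilobase for Mrpl17 to 228.5 for Mrps6, with Mrpl52 next at 102 and a median of 24. The place of Mrps6 is uncertain, because Slc5a3, a sugar alcohol transporter gene at 149 and 152 CPM in WT normal, lies with it on the same strand and shares exon bases with it. In the later build GRCm38, 33 members share exon bases with another gene, and the library kit does not mark strand, so for these members reads of both genes could have been counted.

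In starved WT cells 40 of the 78 members rose and 20 fell (limma, Benjamini-Hochberg adjusted p under 0.05 over all 16232 genes), and 18 did not pass the test. Of all genes tested, 39.3% rose and 39.2% fell. The median log2 difference of the members, starved minus normal, was 0.16, against 0.00 for all genes. With scaling to total reads it was 0.09 for the members, against -0.06 for all genes. The changes were small in size: 2 members, Mrps9 and Mrpl45, moved by at least 1 on the log2 scale, which 19.6% of all genes did in either direction. Folds throughout are on the scale of log2(CPM + 1).

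Among members that rose, Mrps9, a small subunit protein with a bacterial relative, stood at 27.9 and 24.9 CPM in WT normal, 58.5 and 61.0 in WT starved, 27.6 and 28.0 in RA normal and 42.2 and 41.5 in RA starved. Both starved groups stood above both normal groups with no overlap, and RA starved lay between WT normal and WT starved. The log2 difference on starvation was 1.15 (SE 0.06, adjusted p = 9.15e-12) in WT and 0.57 (SE 0.06, adjusted p = 1.76e-07) in RA by limma. Mrpl45 encodes the protein that anchors the large subunit to the inner membrane near the peptide exit, and stood at 41.6 and 42.0 CPM in WT normal, 83.6 and 87.9 in WT starved, 41.7 and 45.2 in RA normal and 61.3 and 59.7 in RA starved. Its difference was 1.02 (SE 0.05, adjusted p = 6.33e-12) in WT and 0.47 (SE 0.05, adjusted p = 3.23e-07) in RA, with the same order of groups. Mrps30 belongs to the large subunit in spite of its name, and stood at 46.2 and 48.4 CPM in WT normal, 83.5 and 92.0 in WT starved, 48.0 and 52.3 in RA normal and 62.0 and 64.5 in RA starved. The starved libraries of each genotype again lay above the normal ones, with differences of 0.88 (SE 0.06, adjusted p = 1.85e-10) in WT and 0.33 (SE 0.06, adjusted p = 5.65e-05) in RA. Its exons share 623 bases with B430218F22Rik, a coding gene on the opposite strand with a mean of 15.7 CPM.

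**Figure D1:**
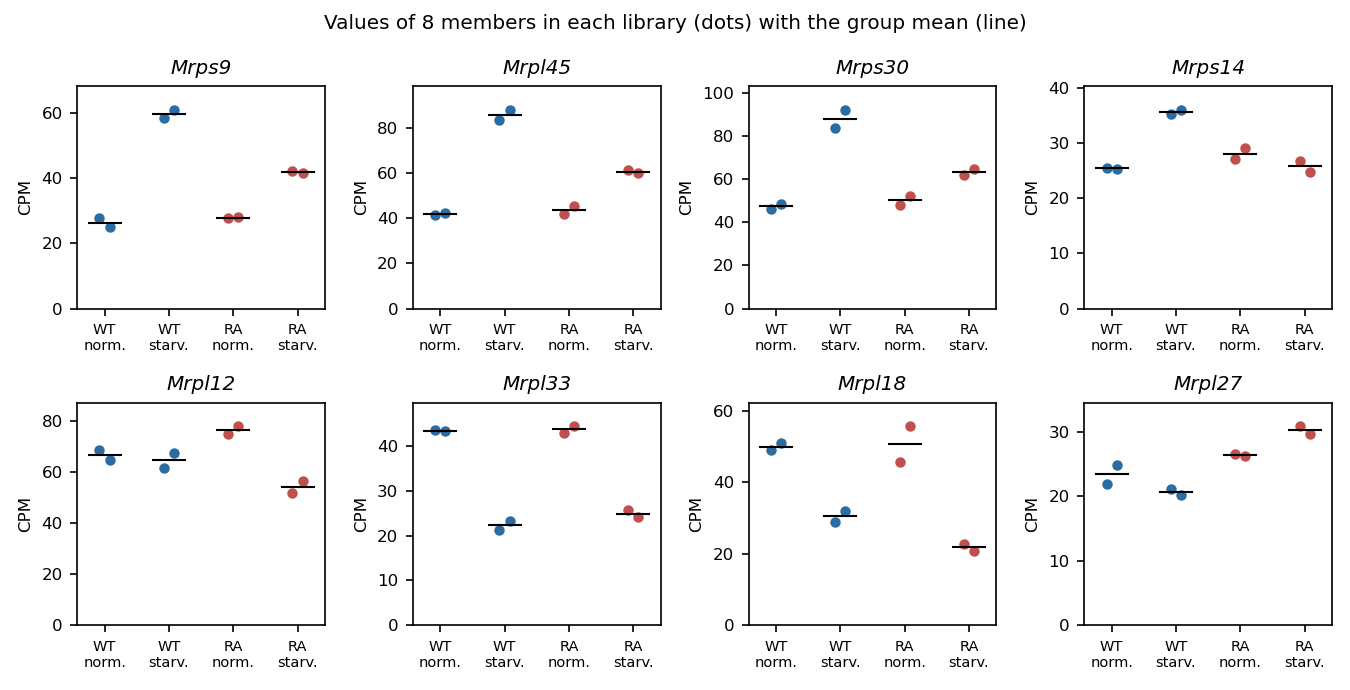
CPM of 8 members in each library, by group (WT normal, WT starved, RA normal, RA starved), with dots for the 2 libraries and a line for their mean; axes start at 0. Mrps9, Mrpl45 and Mrps30 were highest in WT starved, Mrpl33 and Mrpl18 were lower in both starved groups, and Mrpl27 was highest in RA starved.

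Others with the highest responses in WT were Mrpl1, whose protein forms the mobile stalk beside the exit site of transfer RNA, at 0.76 in WT and 0.52 in RA. Mrpl38, a protein of the central protuberance of the large subunit, had 0.75 in WT and 0.23 in RA. Mrps18a, 1 of 3 paralogues related to a single bacterial protein, had 0.70 and 0.35. Of the other paralogues, Mrps18b had 0.52 in WT (adjusted p = 9.26e-07) and 0.08 in RA (adjusted p = 0.298, limma). Exons of Mrps18b share 638 bases with Gm16279, an antisense gene with a mean of 59.8 CPM, so its value is uncertain. Mrps18c, at 24.7 to 27.8 CPM in all 8 libraries, had 0.06 and -0.03 with adjusted p values of 0.424 and 0.660 by limma. It shares 250 exon bases with Gm43511, a gene model on the same strand with a mean of 10.5 CPM. Mrps12, which lines the decoding centre, had 0.24 in WT (adjusted p = 0.00716), and Mrps34 had 0.40 (adjusted p = 2.22e-05). Mrps34 shares 1309 exon bases with Mapk8ip3 on the opposite strand and others with Nme3 on the same strand, and its value is uncertain. For Mrpl44, a relative of ribonuclease III, the WT difference was 0.16 (SE 0.11, adjusted p = 0.175). Mrpl44 shares 126 exon bases with Wdfy1, a coding gene on the opposite strand with a mean of 71.1 CPM.

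Among members that fell, Mrpl33, a large subunit protein with a bacterial relative, stood at 43.6 and 43.4 CPM in WT normal, 21.2 and 23.3 in WT starved, 43.1 and 44.4 in RA normal and 25.7 and 24.2 in RA starved. The starved libraries lay below the normal ones in both genotypes, with differences of -0.94 (SE 0.06, adjusted p = 2.17e-10) in WT and -0.79 (SE 0.06, adjusted p = 4.04e-09) in RA. Mrpl18, related to a bacterial protein that binds ribosomal RNA of the central protuberance, stood at 49.0 and 51.0 CPM in WT normal, 29.0 and 31.9 in WT starved, 45.8 and 55.7 in RA normal and 22.6 and 20.9 in RA starved. It showed the lowest value of any member in RA, -1.18 (SE 0.08, adjusted p = 5.17e-10), against -0.70 (SE 0.08, adjusted p = 2.76e-07) in WT. Its exons share 141 bases with Tcp1, a cytosolic chaperonin gene on the opposite strand with a mean of 516 CPM. Mrpl42, a protein found only in mitoribosomes, had -0.69 in WT and -1.04 in RA, and Mrpl40, of the same kind, had -0.74 and -0.73. Mrps6 had -0.77 and -0.62, while Slc5a3 beside it went from 149 and 152 CPM to 87.7 and 80.2 in WT and from 132 and 124 to 90.7 and 91.0 in RA. Mrps36, whose protein is now known as a part of the 2-oxoglutarate dehydrogenase complex of the citric acid cycle, had -0.62 and -0.78. Reads of Mrps36 and Mrpl23 could also have been shared with the pseudogenes Mrps36-ps1, at 2.17 to 4.78 CPM, and Mrpl23-ps1, at 4.69 to 7.95 CPM.

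In starved RA cells 18 members rose and 25 fell, and 35 did not pass the test, against 35% of all genes that rose and 33.7% that fell. The median of the members was -0.03, against 0.01 for all genes, and kept its sign under the 3 other scalings tried. Moves of at least 1 on the log2 scale were seen for 2 members, Mrpl18 and Mrpl42, and for 9.03% of all genes. After Mrps9, the highest values belonged to Mrpl1, then Mrpl23, a protein at the peptide exit, at 0.52 (SE 0.10, adjusted p = 1.41e-04), then Mrps10 at 0.49, Mrpl45 and Mrpl24, also at the peptide exit, at 0.38. Mrpl24 shares 594 exon bases with Rrnad1, a coding gene on the opposite strand with a mean of 42.2 CPM. After Mrpl18 and Mrpl42, the lowest were Mrpl34 at -0.79 (SE 0.08, adjusted p = 1.31e-07), Mrpl33, Mrps36 and Mrpl40.

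**Figure D2:**
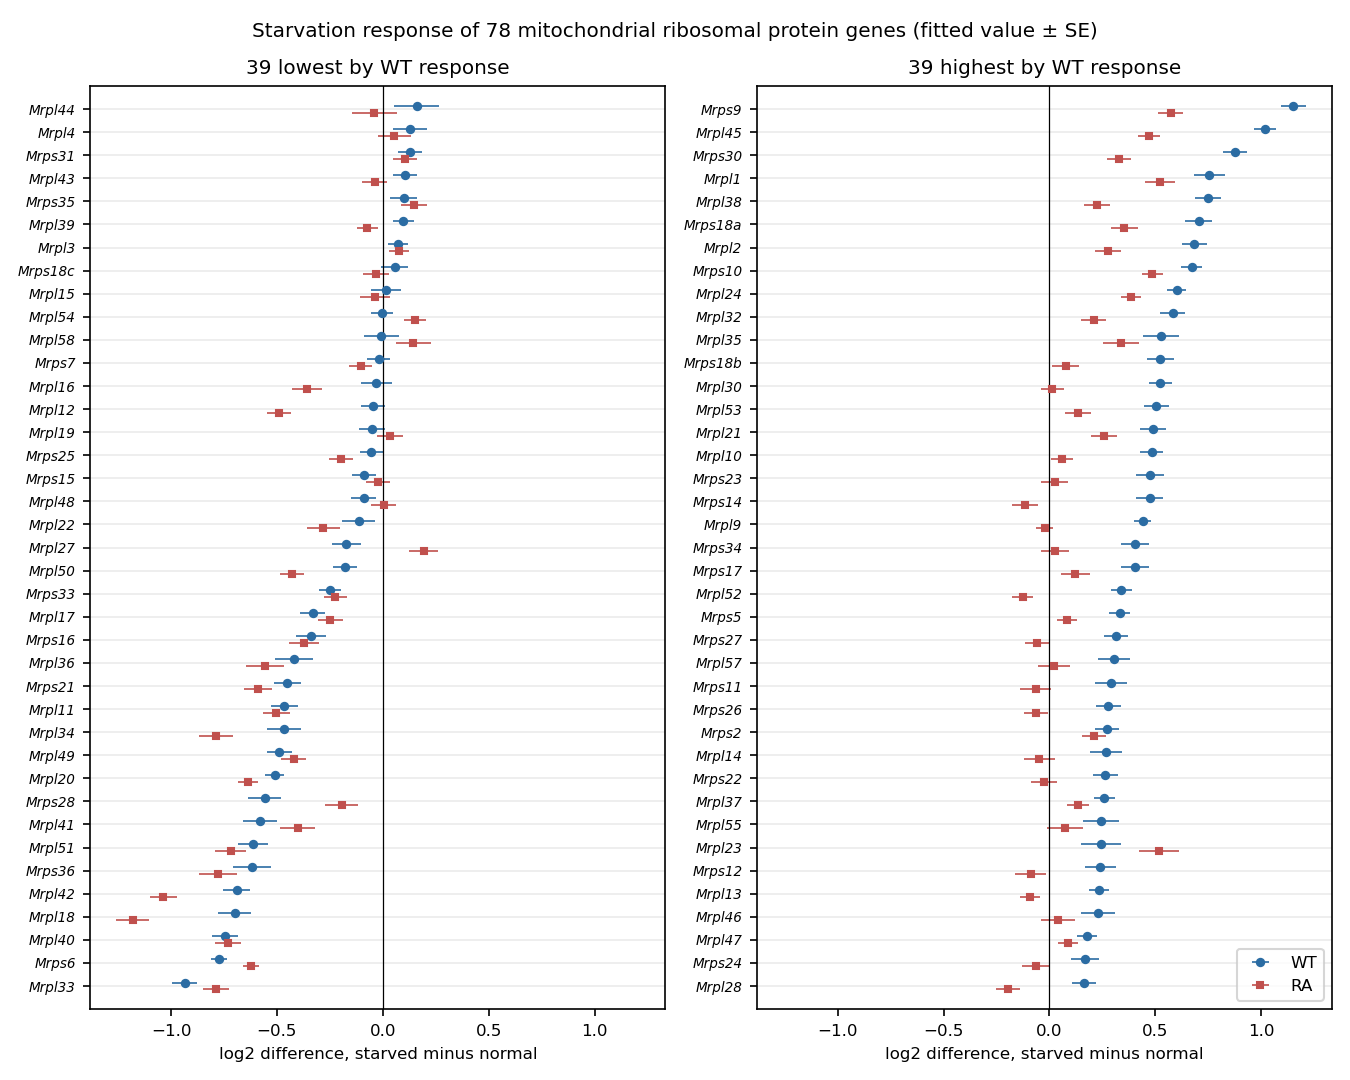
Log2 difference between starved and normal libraries of each of the 78 members in WT (circles) and RA (squares), with bars of 1 standard error, ordered by the WT value from bottom to top and split into the 39 lowest and the 39 highest. WT values ran from -0.94 (Mrpl33) to 1.15 (Mrps9) and RA values from -1.18 (Mrpl18) to 0.57 (Mrps9).

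The stalk that recruits translation factors to the large subunit is made by Mrpl12 and Mrpl10 and rests on Mrpl11. Mrpl12, the stalk protein itself, stood at 68.4 and 64.6 CPM in WT normal, 61.5 and 67.3 in WT starved, 74.8 and 77.8 in RA normal and 51.6 and 56.5 in RA starved. The WT groups overlapped, and the RA starved libraries lay below all 6 others. Its difference was -0.05 (SE 0.06, adjusted p = 0.458) in WT and -0.49 (SE 0.06, adjusted p = 5.62e-07) in RA. Mrpl10, which carries the stalk, had 0.48 (SE 0.05, adjusted p = 2.19e-07) in WT and 0.06 (SE 0.05, adjusted p = 0.319) in RA. Mrpl11, at the base of the stalk, fell in both genotypes, by 0.46 in WT and 0.50 in RA on the log2 scale (adjusted p = 4.22e-06 and 2.51e-06, limma). Exons of Mrpl12 share 200 bases and those of Mrpl10 share 240 with non-coding genes on the opposite strand.

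Whether the response itself differed between genotypes was tested by the interaction, the RA response minus the WT response. It was negative and passed the test for 37 members, was positive and passed for 3, and did not pass for 38, against 26.1% of all genes negative and 24.5% positive. The median of the members was -0.19, against -0.01 for all genes, and was negative under every scaling tried, from -0.25 to -0.12. The interaction also equals the RA minus WT difference under starvation minus that in normal medium. Members had medians of -0.10 and 0.11 for these, so the normal libraries enter it as well, and a negative value need not mean a lower level in starved RA. The median of all genes moved as well, to -0.06 beside the -0.25 (quantile normalization) and to 0.05 beside the -0.12 (total reads). Scaling to total reads instead gave 28 negative and 6 positive members, which moves the positive share of those called from 7.5% to 17.6%. With the trends on transcript length and GC content removed, an alternative chosen after the data were seen, 32 were negative and 8 positive. How many of all genes were called was not counted in either setting, so these moves cannot be called particular to the members.

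The most negative interaction was that of Mrps14, a small subunit protein with a bacterial relative, which stood at 25.5 and 25.3 CPM in WT normal, 35.2 and 36.0 in WT starved, 27.0 and 29.0 in RA normal and 26.8 and 24.8 in RA starved. WT starved lay above all other groups, which lay between 24.8 and 29.0 CPM. The interaction was -0.59 (SE 0.09, adjusted p = 3.30e-05), with 0.47 (SE 0.06, adjusted p = 2.27e-06) in WT and -0.12 (SE 0.06, adjusted p = 0.107) in RA. For Mrps9, Mrpl45 and Mrps30, which rose in both genotypes, it was -0.58 (SE 0.08, adjusted p = 2.34e-05), -0.55 (SE 0.07, adjusted p = 8.47e-06) and -0.55 (SE 0.08, adjusted p = 2.37e-05) by limma. Mrpl38 had -0.52 (SE 0.09, adjusted p = 9.66e-05) and Mrpl30, a large subunit protein with a bacterial relative, had -0.51 (SE 0.08, adjusted p = 3.11e-05). Mrps14, Mrps9, Mrpl45 and Mrpl38 share no exon bases with another gene. Of the genes followed in each comparison, Mrpl12 had -0.45, Mrpl10 -0.42, Mrps18b -0.45, Mrps34 -0.38, Mrps18a -0.35 and Mrps12 -0.33, all called. Mrpl11 had -0.04, Mrps18c -0.09, Mrps36 -0.16 and Mrpl44 -0.20, with adjusted p values of 0.754, 0.430, 0.306 and 0.279 by limma.

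The 3 positive interactions were those of Mrpl27, Mrps28 and Mrps6. Mrpl27, whose bacterial relative reaches into the peptidyl transferase centre, stood at 22.0 and 24.9 CPM in WT normal, 21.1 and 20.2 in WT starved, 26.5 and 26.2 in RA normal and 30.8 and 29.7 in RA starved. The RA starved libraries were the highest of the 8, and the difference was -0.17 (SE 0.07, adjusted p = 0.0287) in WT and 0.19 (SE 0.07, adjusted p = 0.0194) in RA, so that the gene fell in WT and rose in RA. Its exons share 75 bases with Eme1, a head-to-head neighbour that went from 42.0 and 47.3 CPM to 27.2 and 31.2 in WT and from 43.1 and 48.4 to 29.4 and 28.1 in RA. Mrps28 stood at 22.2 and 22.7 CPM in WT normal, 14.1 and 15.8 in WT starved, 23.5 and 26.6 in RA normal and 21.1 and 22.4 in RA starved. It fell in both genotypes, with -0.56 in WT and -0.19 in RA, an interaction of 0.36 (SE 0.11, adjusted p = 0.0109), and no overlap of its exons with another gene. For Mrps6 the interaction was 0.15 (SE 0.05, adjusted p = 0.0251).

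**Figure D3:**
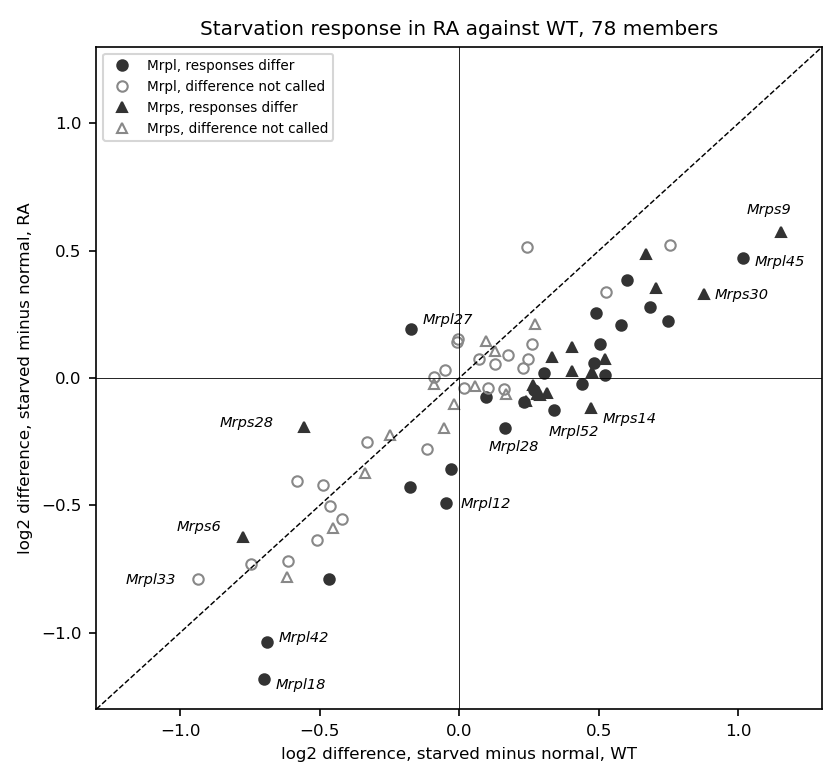
Log2 difference between starved and normal libraries in RA (vertical) against WT (horizontal) for the 78 members, circles for Mrpl and triangles for Mrps names, filled where the interaction passed the test; the dashed line marks equal responses. Of the 40 filled points, 37 lie below the line and 3 above it.

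Set side by side, 15 members rose in both genotypes, 19 fell in both, 23 rose in WT and did not pass the test in RA, and 12 passed in neither. Of all genes, 39.3% rose and 39.2% fell in WT, and 35% rose and 33.7% fell in RA. How many of all genes showed each joint pattern was not counted, so these counts cannot be called particular to the members. Mrpl28 and Mrpl52 rose in WT and fell in RA, named because they are the only members with that pattern. Mrpl52, a protein found only in mitoribosomes, stood at 45.0 and 43.1 CPM in WT normal, 54.2 and 57.8 in WT starved, 46.7 and 46.1 in RA normal and 42.6 and 42.2 in RA starved, with differences of 0.34 (SE 0.05, adjusted p = 9.53e-06) in WT and -0.13 (SE 0.05, adjusted p = 0.0343) in RA. The WT starved libraries were the highest of the 8 and the RA starved libraries the lowest. Of the 40 members that rose in WT, 30 had a negative interaction and 10 did not pass that test, and 26 were lower in starved RA than in starved WT libraries. Whatever their WT response, 26.1% of all genes had a negative interaction and 32.1% were lower in starved RA. Of the 20 that fell in WT, 4 had a negative and 3 a positive interaction, and 13 did not pass. The WT values enter both the choice of these members and their interaction, so these counts are a description.

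In normal medium, 10 members were higher in RA than in WT libraries, 0 were lower and 68 did not pass, against 6.68% of all genes higher and 2.95% lower (limma; the median-ratio, quantile and total-read scalings gave 7, 8 and 5 higher members and 1 lower member each, so that 87.5%, 88.9% and 83.3% of those called were higher, against 100% as deposited). Whether called or not, 74 of 78 had a positive difference (94.9%, against 52.2% of all genes), which became 71, 70 and 57 under those scalings. The median of all genes moved too, to -0.01, -0.01 and -0.04. Neither the share of all genes called nor the share with a positive difference was counted under those scalings. At an unadjusted p under 0.05, limma gave 29 higher members and 1 lower, Mrps6 at -0.12 (adjusted p = 0.0535); edgeR gave 10 and 0 after adjustment and DESeq2 5 and 1. The median was 0.11, against 0.01 for all genes, and the highest value was 0.33. Mrpl53, found only in mitoribosomes, stood at 20.0 and 20.2 CPM in WT normal, 29.1 and 28.8 in WT starved, 25 and 26.2 in RA normal and 28.1 and 28.3 in RA starved, and its difference was 0.33 (SE 0.06, adjusted p = 0.00171). All 695 bases of its transcript are shared with Gm42688, a same-strand gene model with a mean of 30.3 CPM. Then came Mrps33 at 0.25 (SE 0.05, adjusted p = 0.00649), Mrpl11 at 0.25 (SE 0.06, adjusted p = 0.0224), Mrpl30 at 0.24 (SE 0.05, adjusted p = 0.00961), Mrpl13 at 0.21 (SE 0.05, adjusted p = 0.00892) and Mrpl32, which is cut by an inner membrane protease before it joins the ribosome, at 0.20 (SE 0.06, adjusted p = 0.0375). Mrpl13 shares 330 exon bases with Mtbp, a coding gene on the opposite strand with a mean of 74.0 CPM, so its value is uncertain. Mrpl12 was called as well, at 0.20 (SE 0.06, adjusted p = 0.0353). The count of higher members was 2 with no filter on low values and 1 without the trend in eBayes. It fell to 1 without WT normal replicate 1, to 6 without WT normal replicate 2 and to 3 without RA normal replicate 2.

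Under starvation, 14 members were higher and 32 lower in RA than in WT libraries, and 32 did not pass, against 30.8% of all genes higher and 32.1% lower. The share of higher members among those called was 30.4%, and 18.6% after quantile normalization, where the calls over all genes were not counted. The median was -0.10, against -0.01 for all genes. Higher in RA were Mrpl27 at 0.53 (SE 0.07, adjusted p = 3.55e-06), Mrps28 at 0.51 (SE 0.08, adjusted p = 2.11e-05), Mrpl54 at 0.35 (SE 0.05, adjusted p = 2.28e-05), Mrpl23 at 0.32, Mrps33 at 0.28 and Mrpl49 at 0.23. Mrpl49 shares 91 exon bases with Syvn1, a coding gene on the opposite strand with a mean of 140 CPM. Lower in RA were Mrps9 at -0.50 (SE 0.06, adjusted p = 1.25e-06), Mrpl38 at -0.50 (SE 0.06, adjusted p = 2.32e-06), Mrpl45 at -0.49 (SE 0.05, adjusted p = 2.52e-07), Mrpl18 at -0.47, Mrps30 at -0.46 and Mrps14 at -0.45. Mrpl54, found only in mitoribosomes, stood at 37.5 and 39.7 CPM in WT normal, 38.0 and 39 in WT starved, 42.9 and 45.8 in RA normal and 49.8 and 48.9 in RA starved, and both RA groups lay above both WT groups. The count of higher members was 8 without either RA starved replicate and 7 without WT starved replicate 1.

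**Figure D4:**
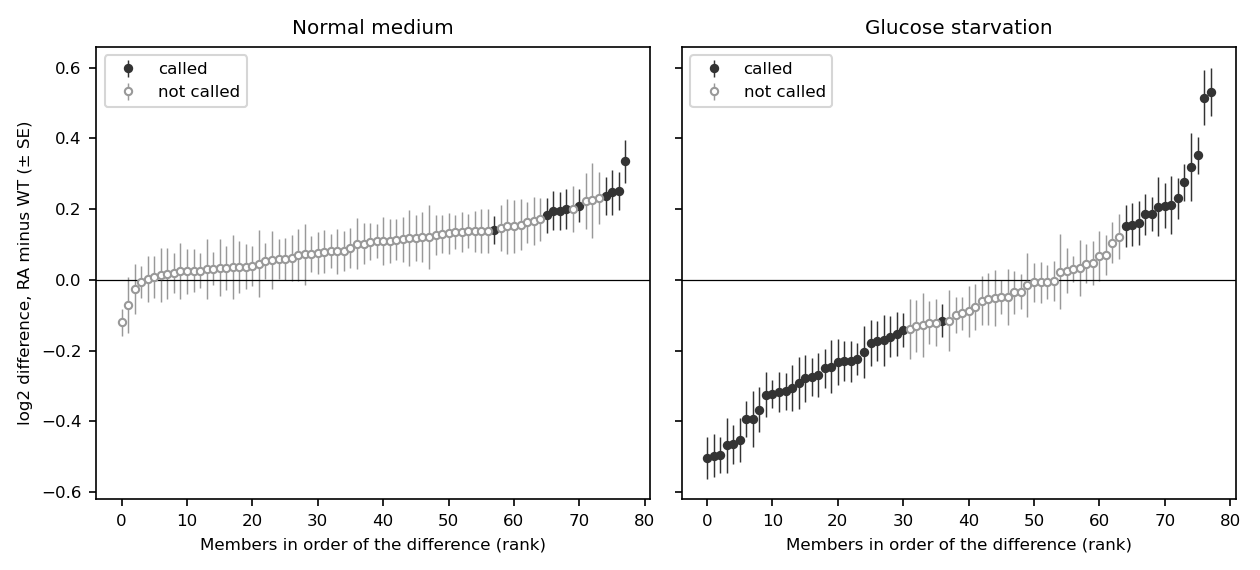
Log2 difference between RA and WT libraries of the 78 members in normal medium (left) and under glucose starvation (right), each ordered by size, with bars of 1 standard error; filled points passed the test. In normal medium the values ran from -0.12 to 0.33 and under starvation from -0.50 to 0.53.

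By gene name, 22 of 49 Mrpl members rose and 14 fell in WT cells, and 18 of 29 Mrps members rose and 6 fell. Of all genes, 39.3% rose and 39.2% fell. The name does not always give the subunit, as with Mrps30. The interaction was negative for 22 Mrpl and 15 Mrps members and positive for 1 and 2, beside 26.1% and 24.5% of all genes, and the same shares of all genes apply to the classes that follow. Counted by where the proteins sit and by descent, 14 of 30 large subunit proteins with a bacterial relative had a negative interaction, as did 10 of 21 large subunit proteins found only in mitoribosomes, 7 of 16 small subunit proteins with a bacterial relative and 6 of 10 found only in mitoribosomes. These classes rose in WT cells for 15, 9, 9 and 7 members and fell for 8, 6, 4 and 1, and Mrps36 stood outside all 4 classes. Counted as found only in mitoribosomes were also Mrps18a in the large and Mrps18b in the small subunit, although both are related to a bacterial protein. Both rose in WT cells and had a negative interaction. The differences between classes were not tested. Members that fell in WT cells had a median longest transcript of 884.5 bases, those that rose 1407.5 and all members 1327.5, against 2705 for the 15627 genes tested with a matched transcript.

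Among the 45 members that share no exon bases with another gene, 24 rose and 13 fell in WT, 14 rose and 17 fell in RA, and the interaction was negative for 22 and positive for 1. Of all genes, 39.3% rose and 39.2% fell in WT, 35% and 33.7% in RA, and the interaction was negative for 26.1% and positive for 24.5%. In 26 members another coding gene starts head to head within 1000 bases. Mrpl46 and Mrps11 form such a pair and share 173 exon bases, with differences in WT of 0.23 (SE 0.08, adjusted p = 0.0155) and 0.29 (SE 0.07, adjusted p = 0.00191).

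Of the 5 mitoribosomal proteins with other names, Dap3, a small subunit protein that binds GTP, stood at 69.2 and 68.9 CPM in WT normal and 106 and 110 in WT starved, and at 73.2 and 75.1 in RA normal and 93.2 and 90.0 in RA starved. It rose in either genotype, with log2 differences of 0.64 (WT) and 0.30 (RA) and an interaction of -0.34 (adjusted p = 0.000165, limma). Chchd1 had 0.01 in WT and -0.47 in RA, with an interaction of -0.48 (adjusted p = 0.000317), and Ptcd3 had -0.37 in WT and -0.34 in RA. Aurkaip1 had 0.32 in WT and 0.16 in RA, and Gadd45gip1 had 0.20 and -0.04. Together, 3 of the 5 rose and 1 fell in WT, and 3 had a negative interaction. Shares over all genes were 39.3% that rose and 39.2% that fell in WT, and 26.1% with a negative interaction.

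The genes that make and use the mitoribosome were described by the same counts. Of 26 assembly factors tested, 17 rose and 4 fell in WT, with a median of 0.35 against 0.00 for all genes. Their interaction was negative for 5 and positive for 2. Beside these and the translation factors below stand all genes, of which 39.3% rose and 39.2% fell in WT. For 26.1% of all genes the interaction was negative and for 24.5% positive. Nsun4, a methyltransferase of mitochondrial ribosomal RNA, had the highest value in WT, 1.01, with 0.80 in RA. Tfb1m, another methyltransferase of that RNA, had the lowest in WT, -0.92, with -0.47 in RA and the highest called interaction, 0.45, while Gtpbp10 had the most negative interaction, -0.76, with 0.81 in WT and 0.06 in RA. Of 15 translation factors, 8 rose and 3 fell in WT, and the interaction was negative for 2. Tsfm, which recharges the elongation factor Tufm, went from 29.2 and 29.9 CPM to 69.7 and 68.4 in WT and from 30.5 and 28.0 to 44.5 and 42.7 in RA, with differences of 1.20 and 0.56 and an interaction of -0.64 (adjusted p = 3.98e-06, limma). Tufm had the lowest value, -0.39 in WT and -0.57 in RA, and Mtif3, an initiation factor, had the other called interaction, -0.35.

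Of 11 genes for mitochondrial DNA maintenance and transcription, 8 rose and 3 did not pass the test in WT, and the interaction was negative for 8. Over all genes tested, 39.3% rose and 39.2% fell in WT, and 26.1% had a negative interaction. The same shares stand beside the counts of regulators and mitochondrially encoded genes below. Top1mt, the mitochondrial topoisomerase, had the highest value at 1.45 in WT, against 0.93 in RA, and Twnk, the replicative helicase, had the most negative interaction at -0.84 with 1.25 in WT and 0.41 in RA. The lowest called value in WT was that of Polg, the replicative polymerase, at 0.19, and the called interaction closest to 0 that of Tfam at -0.18. Twnk shares 507 exon bases with the member Mrpl43 on the opposite strand, whose own differences were 0.10 (SE 0.06, adjusted p = 0.108) in WT and -0.04 (SE 0.06, adjusted p = 0.562) in RA. Of 9 regulators of mitochondrial biogenesis tested, 6 rose and 2 fell in WT. Nrf1 had 0.20 in WT and 0.05 in RA, and of the NRF2 complex Gabpa had -0.21 and -0.36, Gabpb1 0.26 and 0.17, and Gabpb2 0.50 and 0.29. Of the others called in WT, Pprc1 had 0.48 and 0.25, Esrra 0.19 and 0.01, Yy1 -0.30 and -0.24, and Myc 0.86 and 0.96. Of the partners made in the mitochondrion itself, mt-Rnr1, the ribosomal RNA of the small subunit, had 0.72 in WT and 0.83 in RA. The ribosomal RNA of the large subunit, mt-Rnr2, had 0.09 in WT (adjusted p = 0.0871) and 0.18 in RA (adjusted p = 0.00198, limma), while 10 of 13 protein-coding mitochondrial genes fell and 2 rose in WT. All libraries were made from polyadenylated RNA.

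Values of the cytosolic ribosome and the respiratory chain are given beside the 40 members that rose and 20 that fell in WT cells. Of 78 cytosolic ribosomal protein genes tested, 76 rose and 1 fell with a median of 0.62, and of 80 nuclear respiratory chain subunits 29 rose and 31 fell with a median of -0.03. In RA cells the medians were 0.19 for the cytosolic ribosome and -0.19 for the respiratory chain. The interaction was negative for 76 of the cytosolic ribosomal protein genes and did not pass for the other 2, with a median of -0.45, and negative for 37 and positive for 6 of the respiratory chain subunits, with a median of -0.18, beside -0.19 for the members. The differences between lists were not tested.

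**Figure D5:**
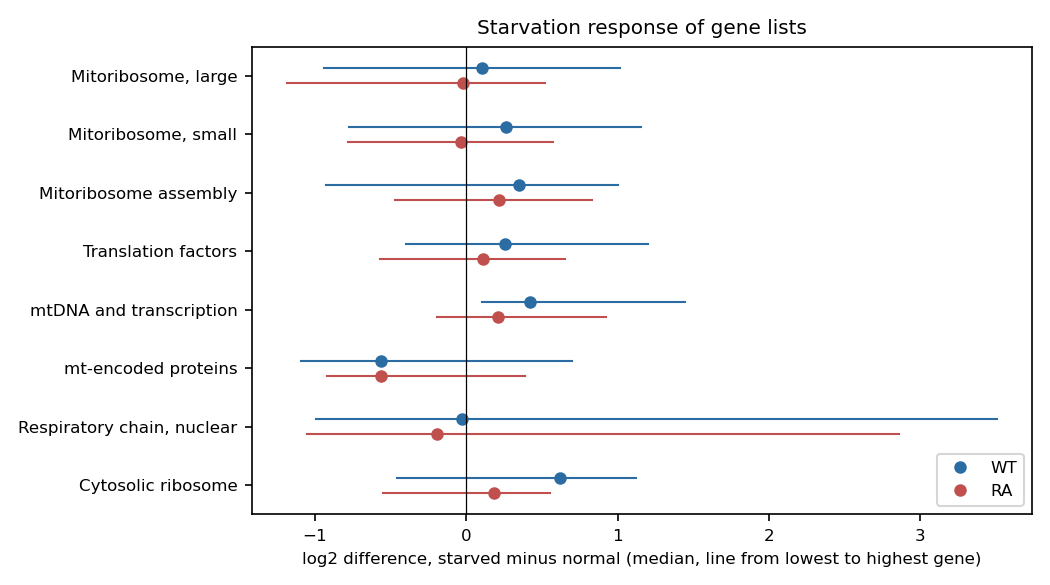
Log2 difference between starved and normal libraries for 8 gene lists in WT and RA, with a dot for the median gene and a line from the lowest to the highest gene tested. The cytosolic ribosomal proteins had medians of 0.62 in WT and 0.19 in RA, against 0.10 and -0.02 for Mrpl and 0.26 and -0.03 for Mrps genes.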

How the data were processed

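The 8 polyA RNA-seq libraries of Pontin WT and RA MEFs (2 per group) were analysed. According to the submitters' processing notes, TopHat2 version 2.0.9, bedtools, edgeR and the mouse build mm9 were used; the counter settings, the annotation and the handling of strand are not given in the sources used here. The authors deposited 1 table of CPM signal per gene, not log transformed, whose column sums differ between libraries. Its columns marked minus and plus for glucose starvation were read as normal and starved medium. All values in each library were whole multiples of 1 read (tolerance 0.1 read), so read counts behind the deposited signal were recovered; between 78.2% and 80.5% of counts from 1 to 9 were even, as counts of the separate mates of read pairs would be, so counting error is larger than the read number implies.

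Genes with at least 1 CPM in at least 2 of 8 samples were tested on log2(CPM + 1) with limma 3.58.1 in R 4.3.3 (1 fit over the 4 groups, eBayes with trend, no replicate block), with Benjamini-Hochberg adjusted p under 0.05 over all genes. The 5 contrasts share groups, so they are not independent of each other. Members named were, per contrast, up to 6 with the highest and 6 with the lowest log2 change among those called without overlap of groups, plus Mrpl10, Mrpl11, Mrpl12, Mrpl44, Mrpl45, Mrps12, Mrps18a, Mrps18b, Mrps18c, Mrps30, Mrps34 and Mrps36 in all; for the assembly, translation factor and mitochondrial DNA lists, the extremes called in WT starvation and the interaction, and any gene of a list under 10. The cytosolic ribosome, respiratory chain and mitochondrially encoded protein lists are given by counts and medians with no gene named. Members and other genes named outside this rule (Mrpl28, Mrpl43, Mrpl46, Mrpl52, Mrps11, the biogenesis regulators and genes that share exon bases) were chosen after their values were seen. The members and all lists were chosen with earlier results of these data known. Alternatives were pseudocounts of 0.1 and 0.5, no filter, a filter of 5 CPM, 3 other scalings, a replicate block, no trend, only the groups compared, an adjusted p under 1e-05, leaving out each library, edgeR 4.0.16 and DESeq2 1.42.0 on the recovered reads, edgeR on halved reads and, added later, removal of length and GC trends. On simulated data with 100 genes changed at each size among 16232, 100% were recovered for WT starvation at a log2 change of 0.5 and 89% for the interaction, with 7.41% and 5.5% of all calls false. The changed genes were drawn only from those with many reads. The spread was a fixed assumed value, not estimated from these data, and separate counting of mates was not simulated. Far fewer genes were changed than were called here, so these rates describe that setting and not these data. Transcript length, GC content and exon overlaps came from GENCODE M21 (GRCm38), and promoters from RefSeq (GRCm38.p6); no coordinates were converted between builds.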

Additional observations from a re-analysis of the deposited data

Results flagged for a closer look

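The starvation response differed between RA and WT cells for 40 of the 78 members by the interaction test (limma, Benjamini-Hochberg adjusted p under 0.05 over all genes), 51.3% of the members, against 26.1% of all genes with a negative and 24.5% with a positive difference, so the share of members called was near that of all genes. With 2 samples per group, no single library could be tested for standing apart. Of the members named, the response of RA minus WT was positive for Mrpl27 at 0.36, Mrps28 at 0.36 and Mrps6 at 0.15 on the log2 scale. It was negative for Mrps14 at -0.59, Mrps9 at -0.58, Mrpl45 at -0.55, Mrps30 at -0.55, Mrpl38 at -0.52 and Mrpl30 at -0.51. Further negative values were -0.45 for Mrpl12, -0.42 for Mrpl10, -0.35 for Mrps18a, -0.45 for Mrps18b, -0.33 for Mrps12 and -0.38 for Mrps34. Values of Mrps6, Mrps34, Mrps18b, Mrps30, Mrpl27, Mrpl10 and Mrpl12 may include reads of genes that share their exon bases.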

How the results depend on the processing

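Direction under the alternatives was checked only for the members named by rule in each contrast, not for the other members called. None of these results that passed the test changed direction. Of the single-gene results recomputed for the named members, 2175 kept their side of the threshold, 98 lost it and 8 gained it. An adjusted p under 1e-05 in place of 0.05 left 20 members higher and 13 lower for WT starvation, 5 and 14 for RA starvation, 0 higher and 2 lower for the interaction, 1 and 7 for RA against WT starved, and 0 higher for RA against WT normal. DESeq2 gave 5 higher and 1 lower for RA against WT normal and 9 higher for RA against WT starved. Total-read scaling gave 5 higher and 1 lower for RA against WT normal and 6 higher for the interaction, and quantile normalization 8 higher for RA against WT starved. RA against WT normal had 2 higher members with no filter, 1 higher without the trend in eBayes, and 1 lower with quantile normalization, median-ratio scaling, the filter of 5 CPM, edgeR on halved reads, and length and GC trends removed, where the interaction had 8 higher. No filter adds genes to the adjustment, and the stricter threshold lowers counts by construction; the cause of the other moves was not tested. No scaling moved the median of all genes by over 0.1 on the log2 scale. How many of all genes were called under each alternative was not counted.

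Leaving out 1 library at a time gave 1 to 14 higher and 0 to 1 lower members for RA against WT normal, 7 to 15 higher and 24 to 32 lower for RA against WT starved, 35 to 41 and 19 to 20 for WT starvation, 14 to 18 and 22 to 25 for RA starvation, and 2 to 5 and 28 to 40 for the interaction. The interaction gave 5 higher without RA normal replicate 2 and 2 without WT normal replicate 2. With the replicate number as a block, RA against WT normal had 13 higher and 1 lower and the interaction 39 lower, and the other counts were those without the block. Same-numbered libraries of 2 groups had correlations of -0.00764 to 0.157 between their deviations, so the numbers were not taken to pair the libraries. Mrpl41 had the fewest reads of any member in a single library, 430, so counting error limits the lowest members most.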
